A study of Rattus norvegicus with 6 samples.

Results

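The genes described are 4 of the ubiquitin system: Ndfip1 and Ndfip2, which encode adaptors of the Nedd4 ubiquitin ligases, and Trim2 and Mex3c, which encode ubiquitin ligases themselves. They were chosen by name, through the rat RefSeq mRNA that each probe of the array was designed for, and not by their measured values. Earlier results of these data were, however, known when the 4 genes were chosen. Names were looked up for 50 catalogue probes only, of an array with 38804 different probes, and 30 of the 50 could be named. The 4 genes are among these 30. RNA was measured in the thoracic aorta of SHR, spontaneously hypertensive rats, an inbred strain with high blood pressure. Per the labels, the peptide group (3 rats) was injected intravenously with the Ganoderma lingzhi oligopeptide SYP, 5 mg per kg of body weight daily over 28 days, and the control group (3 rats) with saline. All were SHR, 12 weeks old at the start and 16 weeks old at collection, and no strain with normal blood pressure was included. The labels call the rats female in one field and male in another, which was not settled here. Each array holds the RNA of 1 sample.

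Ubiquitin ligases choose the proteins to which the small protein ubiquitin is attached, a mark that sends a protein to the proteasome or changes where it goes in the cell. The Nedd4 family of ligases recognises short proline-rich motifs with its WW domains. Ndfip1 and Ndfip2 are small membrane proteins of the Golgi and endosomes that carry such motifs, and they bind Nedd4 family ligases, activate them and bring them to membrane proteins such as the divalent metal transporter. Trim2 is a RING-type ligase of the TRIM family that is best known in neurons, where the light neurofilament chain is a substrate. Mex3c joins RNA-binding KH domains to a RING ligase domain and is known for regulating mRNAs after transcription. The family is known in blood pressure through the kidney, where Nedd4l limits the epithelial sodium channel. A list of 50 other genes held ubiquitin enzymes, Nedd4 family ligases and their substrates. None had a named probe among the catalogue probes (0 of 50), so neither Nedd4 nor Nedd4l was analysed here. The same held for 26 markers of smooth muscle, endothelium, fibroblasts, macrophages, adipocytes and nerve (0 of 26), so the labelled tissue was not checked against its markers. Because whole aorta was used, fewer cells of a type and less RNA per cell cannot be told apart.

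The 6 arrays carried 2 different scan identifiers in their file headers, read here as 2 slides. The slides were inferred from these identifiers alone. Slide 1 carried the control arrays together with peptide 1, and slide 2 carried the remaining peptide arrays, 2 and 3. Between 95.41% and 98.04% of probes were well above background on each array, and no spot was saturated. Values below are log2 processed signals after subtraction of the array's 75th percentile, called log2 normalised signals. A value of 0 is thus the brightness below which 75% of the probes lie. After this scaling the median difference of all 37723 tested probes, peptide minus control, was -0.214, and 27.8% of them lay above 0. The labels speak of 6 rats, and p-values measure the spread between these samples.

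All 4 probes gave a signal well above background in every aorta, as did 95.41% to 98.04% of all probes on each array. Each of the 4 was printed in 10 spots per array, and all 60 spots of each gene, over the 6 arrays, were well above background. The median spot was 53.1 to 155 times as bright as its local background for Ndfip1, 42.8 to 104 times for Ndfip2, 12.8 to 31.8 times for Trim2 and 4.21 to 5.69 times for Mex3c. By brightness the Ndfip1 probe lay above 86.8% to 91.4% of all probes of its array, the Ndfip2 probe above 84.8% to 89.4%, the Trim2 probe above 66% to 80.6% and the Mex3c probe above 20.2% to 42%. Probes differ in how well they bind, so these positions describe signal and do not rank the genes by RNA amount. The 10 spots of a probe agreed closely, with an SD on the log2 scale of 0.05 to 0.11 for Ndfip1, 0.07 to 0.14 for Ndfip2, 0.06 to 0.1 for Trim2 and 0.06 to 0.12 for Mex3c. The SE of an array's mean over its spots was therefore 0.0145 to 0.0455 over the 4 genes, smaller than the SD between arrays in every group of every gene (0.10 to 0.83).

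**Figure D1:**
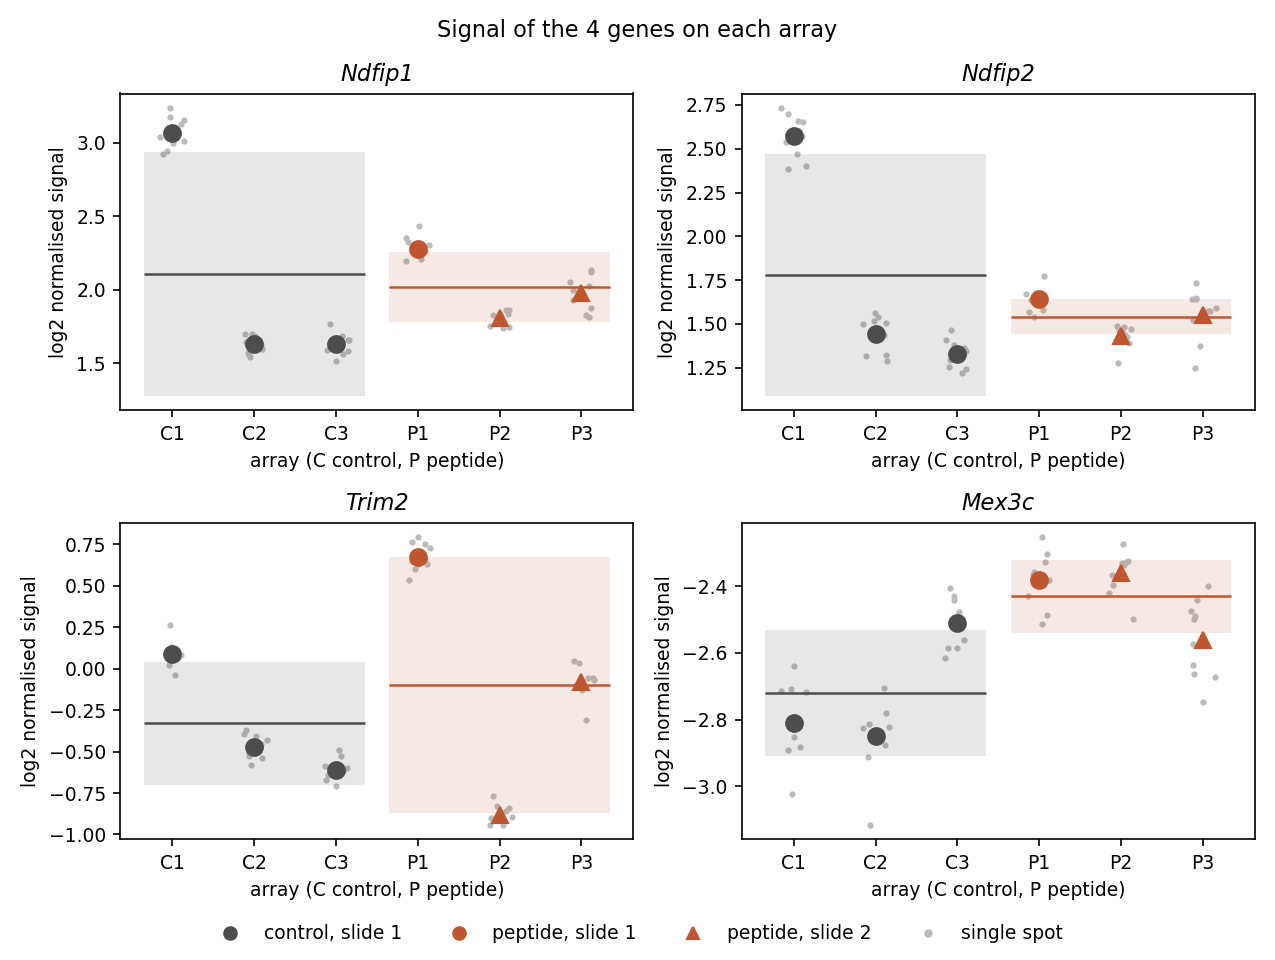
Log2 normalised signal of Ndfip1, Ndfip2, Trim2 and Mex3c (vertical axes, each with its own range) on the 3 control and 3 peptide arrays (horizontal axes). Small grey points are single spots, large symbols the mean of the spots on an array (circles slide 1, triangles slide 2), and lines and shading the group mean and SD (n = 3). Control 1 stands above the other arrays for Ndfip1 and Ndfip2, peptide 1 is the highest array for Trim2, and the groups of all 4 genes overlap.

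The adaptor Ndfip1 (probe A_44_P166216, NM_001013059) had a processed signal of 2104, 693 and 721 in controls 1, 2 and 3 and of 1167, 1177 and 1289 in peptide 1, 2 and 3. After scaling these were log2 normalised signals of 3.07, 1.63 and 1.63 (controls) and 2.28, 1.81 and 1.98 (peptide). Control 1 was the highest array, the other controls were the lowest, and all 3 peptide arrays lay between them. The control mean was 2.11 ± 0.83 and the peptide mean 2.02 ± 0.24 (SD, n = 3 each). The difference was -0.09 (SE 0.40, 95% interval -0.98 to 0.80), and it did not pass the test (limma, unadjusted p = 0.833, Benjamini-Hochberg adjusted p = 0.946). As a ratio of peptide to control the interval runs from 0.508 to 1.74. These arrays thus do not exclude a decrease of nearly 2-fold or an increase of up to 1.74-fold. The sign was not stable: it turned with single arrays left out, under other scalings and with the slide as a block. Control 1 lay 1.43 above the mean of the other controls. Without it the difference was 0.39 (SE 0.25, limma adjusted p = 0.486), and without peptide 2 it was 0.02. Relative to the median difference of all probes, the Ndfip1 difference was 0.13 in the main scaling and 0.03 after quantile normalization. Median scaling gave 0.13 by construction, because it moves all probes of an array alike. The distance was larger, at 0.68, after normexp with the 75th percentile, and 0.62 without control 1.

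The adaptor Ndfip2 (probe A_44_P1047638, NM_001108390) had a processed signal of 1493, 609 and 585 in the controls and of 745, 908 and 962 with the peptide. The log2 normalised signals were 2.57, 1.44 and 1.33 in the controls and 1.64, 1.43 and 1.55 with the peptide. Control 1 was again the highest, and the other 5 arrays lay close together, with the peptide arrays within the range of the controls. The means were 1.78 ± 0.69 and 1.54 ± 0.10 (SD, n = 3 each). The difference was -0.24 (SE 0.36, 95% interval -1.03 to 0.55) and did not pass the test (limma, unadjusted p = 0.516, adjusted p = 0.826). This is 0.03 below the median difference of all probes in the main scaling. After normexp with the 75th percentile Ndfip2 lay 0.53 above that median, and without control 1 0.38 above it. Control 1 lay 1.18 above the mean of the other controls, and without it the difference was 0.15 (SE 0.23, limma adjusted p = 0.795). Control 1 was the highest of the 6 arrays for 21.3% of all tested probes.

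Over the 6 arrays the profiles of Ndfip1 and Ndfip2 lay close together among the named genes, and other probes were not compared. The distance between them, as the root mean square log2 difference of their profiles over the 6 arrays after each was centred on its own mean, was 0.145. Among the 29 other named genes Ndfip2 was the nearest to Ndfip1, followed by Pop7, a subunit of ribonuclease P, at 0.198. For Ndfip2 the nearest were Odf2l, a centrosomal protein gene, at 0.0899 and Pop7 at 0.138, and Ndfip1 followed at 0.145. Odf2l was at 0.43, -0.50 and -0.71 in the controls and -0.45, -0.80 and -0.49 with the peptide. Pop7 was at 2.81, 1.66 and 1.54 in the controls and 1.84, 1.43 and 1.43 with the peptide. Control 1 was the highest array for these genes too. Without control 1, an alternative chosen after seeing the data, the distance of the adaptors was 0.153, and Ndfip2 was still the nearest to Ndfip1. For Ndfip2, Odf2l (0.0948), Ppp2r2b (0.122) and Pop7 (0.14) were then nearer than Ndfip1.

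The adaptors were set against each other within arrays, by the log2 signal of Ndfip1 minus that of Ndfip2. Subtracting a constant from each array cannot change this gap, and its size reflects the probes as well as the RNA, so only its change between arrays is read. The gap was 0.49, 0.19 and 0.30 in controls 1, 2 and 3 and 0.65, 0.37 and 0.42 in peptide 1, 2 and 3. It was widest in peptide 1 and narrowest in control 2, and control 1 lay above peptide 2 and 3, so the groups overlap. The means were 0.33 ± 0.16 and 0.48 ± 0.15 (SD, n = 3 each), a difference of 0.15. The exact permutation test, two-sided, gave p = 0.4, and 0.8 after Benjamini-Hochberg adjustment over the 2 pairs compared; 3 arrays against 3 cannot go below 0.1. Peptide 1 lay 0.32 above the control mean, and the mean of peptide 2 and 3 lay 0.07 above it.

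**Figure D2:**
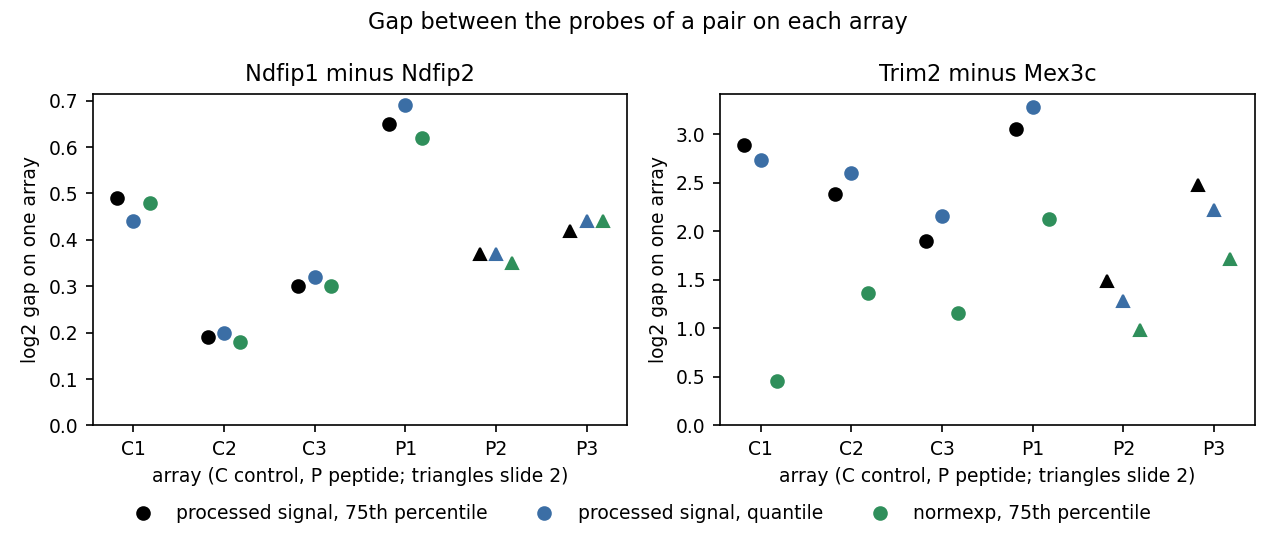
Gap on the log2 scale between the probes of a pair on each array (left Ndfip1 minus Ndfip2, right Trim2 minus Mex3c; vertical axes start at 0 and differ in range), for the 3 control and 3 peptide arrays. Colours mark the background correction and scaling, and triangles mark slide 2. The adaptor gap stays between 0.18 and 0.69 under the 3 settings drawn, whereas the Trim2 minus Mex3c gap of control 1 is 2.89 in the main setting and 0.46 after normexp with the 75th percentile (a background correction of the median spot signals that adds 50 to each).

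Stretches before the listed starts of the adaptors are shown so that their sequences can be set beside their RNA profiles. They come from the RefSeq promoter table of the build GRCr8, which holds a single start per gene, and entries were found for Ndfip1, Ndfip2 and Trim2 but not for Mex3c. The stretch shown runs from 250 to 95 bases before the listed start, which for Ndfip1 ends just before the annotated gene. The stretches of Ndfip2 and Trim2 lie inside the annotated span of their genes, which begins farther upstream, so the values below describe these stretches alone and do not compare where the genes begin. The Ndfip1 stretch is chr18:30516775-30516930 and the Ndfip2 stretch is chr15:88446682-88446837, both on the plus strand and written 5′ to 3′. Capitals mark a GC box, GGGCGG or its reverse complement CCGCCC.
Ndfip1: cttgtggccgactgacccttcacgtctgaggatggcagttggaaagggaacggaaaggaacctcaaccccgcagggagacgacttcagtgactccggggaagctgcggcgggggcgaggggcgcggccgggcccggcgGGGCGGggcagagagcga
Ndfip2: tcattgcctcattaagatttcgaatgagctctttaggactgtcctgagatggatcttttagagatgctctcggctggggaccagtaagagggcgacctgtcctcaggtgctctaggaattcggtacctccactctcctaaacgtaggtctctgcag
The Ndfip1 stretch had a GC content of 69.2%, above that of 91.8% of the 33469 promoters in the table, and held 16 CpG dinucleotides and 1 GC box. The Ndfip2 stretch had a GC content of 50% with 5 CpG dinucleotides, where the median promoter had 3, and held no GC box. That of Trim2 had a GC content of 56.4% with 9 CpG dinucleotides and no GC box. A GC box was present in 17.3% of promoters over the same stretch. RefSeq lists 2 transcripts of Ndfip1, 3 of Ndfip2, 13 of Trim2 and 1 of Mex3c, and which start the aorta uses was not measured. Ndfip1 and Mex3c both lie on chromosome 18 of that build, Ndfip2 on chromosome 15 and Trim2 on chromosome 2.

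The ligase Trim2 (probe A_44_P761041, NM_001108552) had a processed signal of 267, 162 and 153 in the controls and of 382, 183 and 309 with the peptide. The log2 normalised signals were 0.09, -0.47 and -0.61 in the controls and 0.67, -0.88 and -0.08 with the peptide. Peptide 1 was the highest of the 6 arrays and peptide 2 the lowest, so the peptide group spanned the controls. The means were -0.33 ± 0.37 and -0.10 ± 0.77 (SD, n = 3 each). The difference was 0.23 (SE 0.40, 95% interval -0.65 to 1.12) and did not pass the test (limma, unadjusted p = 0.571, adjusted p = 0.848). Peptide 1 alone lay 1.00 above the mean of the controls, and peptide 2 and 3 differed from that mean by -0.15 on average. Peptide 1 was the highest of the 6 arrays for 14.4% of tested probes and lay at least 2-fold above the control mean for 0.586% of them. Both shares are for the array on which Trim2 was highest, so they do not measure how unusual Trim2 is. Without peptide 1 the Trim2 difference was -0.15 (SE 0.34, limma adjusted p = 0.795).

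With the slide as a block, the Trim2 difference was 1.00 (SE 0.44, 95% interval -0.02 to 2.03, limma unadjusted p = 0.0544, adjusted p = 1). Only slide 1 holds both groups, so that value sets the single rat peptide 1 against the controls beside it. With the slide as a random block it was 0.58 (SE 0.42, limma unadjusted p = 0.196). The blocked differences of the other genes were 0.17 (SE 0.58) for Ndfip1, -0.15 (SE 0.51) for Ndfip2 and 0.34 (SE 0.31) for Mex3c, each with a limma adjusted p of 1. Peptide 2 and 3 alone differed from the controls by -0.22 for Ndfip1, -0.29 for Ndfip2 and 0.26 for Mex3c. That comparison runs from one slide to the other, in which a slide effect and a peptide effect cannot be told apart. The profiles nearest to that of Trim2 were those of Nat1, an arylamine N-acetyltransferase, at a root mean square distance of 0.206 and of the translation initiation factor Eif4b at 0.21. Nat1 was at -0.12, -0.64 and -1 in the controls and 0.01, -0.92 and -0.19 with the peptide. Eif4b was at 1.43, 0.96 and 0.98 in the controls and 1.77, 0.78 and 1.05 with the peptide. In all 3 genes peptide 1 was the highest array.

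The ligase Mex3c (probe A_43_P20016, NM_001107377) gave the dimmest signal of the 4 probes. Over all 6 arrays it had the smallest residual SD of the 4 genes in the main scaling, but the spread of its controls was the largest of the 4, at 0.72, after normexp with the 75th percentile. Its processed signal was 36.0, 31.0 and 40.9 in the controls and 46.1, 65.3 and 55.6 with the peptide. Before scaling all 3 peptide arrays thus lay above all 3 controls. The 75th percentile of the array itself was higher on slide 2, at 8.39 and 8.36 (log2) in peptide 2 and 3 against 7.81 to 7.97 on the 4 arrays of slide 1. After scaling the log2 normalised signals were -2.81, -2.85 and -2.51 in the controls and -2.38, -2.36 and -2.56 with the peptide. Peptide 3 then lay just below control 3, and the groups overlap. The means were -2.72 ± 0.19 and -2.43 ± 0.11 (SD, n = 3 each). The difference was 0.29 (SE 0.27, 95% interval -0.31 to 0.89, 1.22-fold) and did not pass the test (limma, unadjusted p = 0.311, adjusted p = 0.762). It was above 89.8% of the differences of all tested probes and lay 0.50 above their median. The residual SD of Mex3c, 0.15, was above that of only 4.9% of tested probes, against 84.8% for Ndfip1 (0.61), 68.1% for Ndfip2 (0.49) and 84.4% for Trim2 (0.61).

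Whether the Mex3c groups separate depended on the scaling. After quantile normalization the signals were 5.38, 4.94 and 5.18 in the controls and 5.48, 5.98 and 5.75 with the peptide. All 3 peptide arrays then lay above all 3 controls, with a difference of 0.57 (SE 0.21, limma unadjusted p = 0.029, adjusted p = 0.809). The groups were apart in this direction for 3.68% of probes under that scaling, and 1.83% were higher at an unadjusted p under 0.05. The authors' deposited values, which are quantile normalised, gave 5.38, 4.95 and 5.18 against 5.48, 5.98 and 5.75, a difference of 0.57 (SE 0.21, limma unadjusted p = 0.029, adjusted p = 0.809), with 1.84% of probes higher at that level. Median scaling gave 0.49 (SE 0.20, limma unadjusted p = 0.0437, adjusted p = 0.785), also with no overlap. Under it 3.63% of probes were apart in this direction and 1.6% were higher at an unadjusted p under 0.05. Normexp with quantile normalization gave 0.21 (SE 0.08, limma unadjusted p = 0.049, adjusted p = 0.863), with no overlap. Under it these shares were 3.52% and 1.4%. Normexp with the 75th percentile turned the sign, at -0.46 (SE 0.38, limma adjusted p = 0.405). The median difference of all probes was then -0.494, and Mex3c lay 0.03 above it. Under that setting control 1 was at -0.38 and the other 5 arrays between -1.76 and -1.55. These settings share the same 6 arrays and are not separate evidence. In each setting without overlap peptide 1 was the lowest peptide array. After quantile normalization peptide 1, on slide 1 with the controls, was at 5.48 against 5.38 in control 1. Peptide 2 and 3 came from slide 2, where a slide effect and a peptide effect cannot be told apart. The fits with the slide were made in the main scaling only.

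The profiles nearest to that of Mex3c were those of Ppp2r2b, a regulatory subunit of protein phosphatase 2A, at 0.293 and of the Mediator subunit Med16 at 0.313. Without control 1 Ppp2r2b was at 0.145, followed by Ndfip2 at 0.184 and Ndfip1 at 0.207, and Med16 was at 0.318. Ppp2r2b was at -2.56, -3.06 and -3.02 in the controls and -2.75, -2.96 and -3.13 with the peptide, with control 1 the highest. Med16 was at -1.18, -0.48 and -0.36 in the controls and -0.46, -0.93 and -0.74 with the peptide, with control 1 the lowest. Mex3c itself varied little, with an SD of 0.19 in the controls and 0.11 with the peptide (n = 3 each). The distances over the 6 arrays, 0.293 and 0.313, are larger than either SD. A gene that varies little lies near other flat profiles, so these ranks do not show a shared pattern.

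The ligases were set side by side on each array in the same way. The gap of Trim2 minus Mex3c was 2.89, 2.39 and 1.90 in the controls and 3.05, 1.49 and 2.48 with the peptide. Peptide 1 had the widest gap and peptide 2 the narrowest. The means were 2.39 ± 0.50 and 2.34 ± 0.79 (SD, n = 3 each), a difference of -0.05 (exact permutation test, two-sided, p = 1, and 1 after adjustment over the 2 pairs). The direction was not stable: the difference was 0.66 on slide 1 alone and with the slide as a block, 0.61 after normexp with the 75th percentile, 0.20 without control 1 and 0.37 without peptide 2.

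In all, 0 of the 4 genes passed the adjusted threshold of 0.05 in limma, where 0 of 37723 tested probes passed (0%). In the main scaling there were 1068 probes (2.83%) at an unadjusted limma p under 0.05, none of them one of the 4 genes. Of the tested probes, 0.535% were higher and 2.3% lower with the peptide at that level. In that scaling the groups did not overlap for 5.51% of tested probes and for 0 of the 4 genes. The Mex3c groups did not overlap after median scaling, quantile normalization with or without normexp, and in the deposited table. Its unadjusted limma p was 0.029 to 0.049 there, and its adjusted p 0.785 or more. Under these settings 3.52% to 3.68% of probes were apart in the same direction. Trim2 and Mex3c had differences above 0, as 27.8% of tested probes had, and Ndfip1 and Ndfip2 below it.

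**Figure D3:**
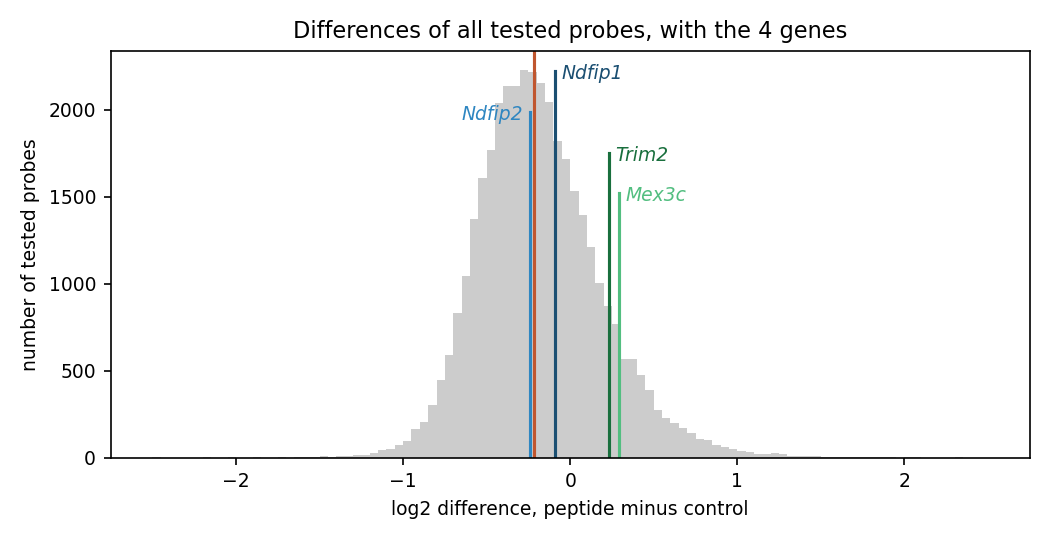
Distribution of the log2 difference, peptide minus control (horizontal axis), over the 37723 tested probes (vertical axis, number of probes per bin of 0.05; values beyond 2.5 either way are drawn at the edge). Coloured lines mark Ndfip2 (-0.24), Ndfip1 (-0.09), Trim2 (0.23) and Mex3c (0.29), and the red line the median of all probes (-0.214). The adaptors lie near that median and the ligases to its right, all within the body of the distribution.

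**Figure D4:**
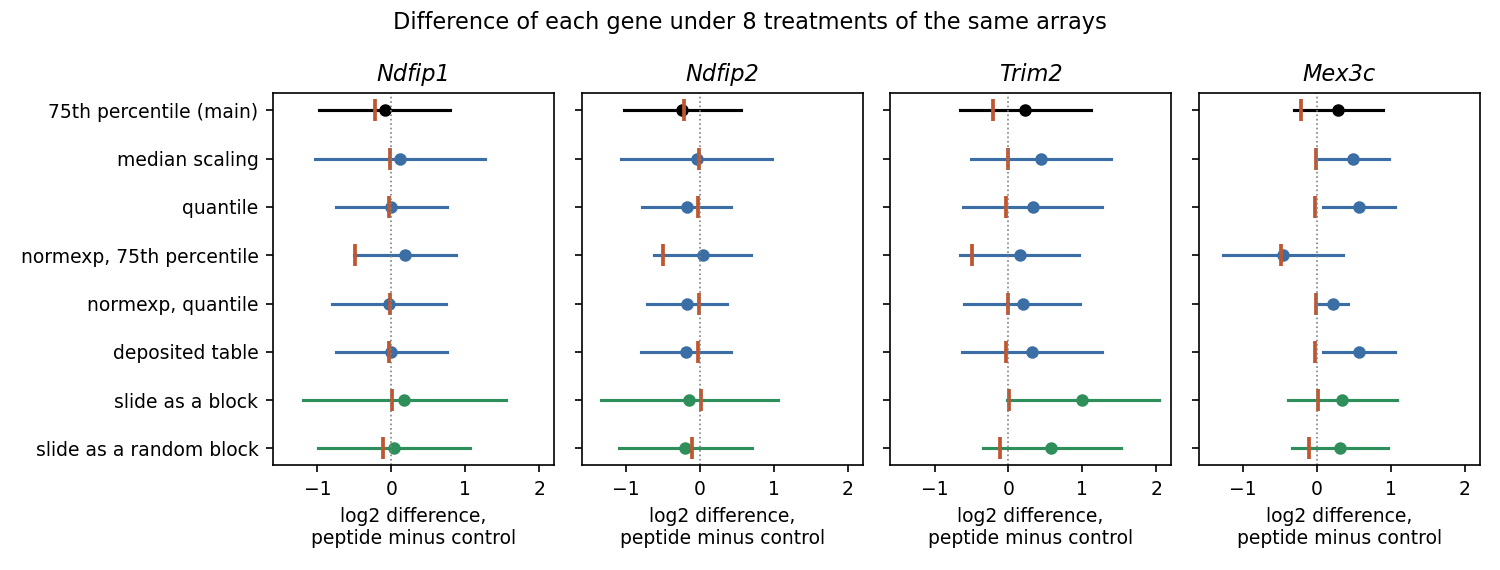
Log2 difference, peptide minus control, with its 95% interval from limma (horizontal axes), for each gene under 8 settings (rows): black the main scaling, blue other scalings, background corrections and the deposited table, green the fits with the slide. Red ticks mark the median difference of all probes under that setting. The intervals of Ndfip1, Ndfip2 and Trim2 include 0 in all 8 settings, and that of Mex3c lies above 0 in 4 of them.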

How the data were processed

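Per the labels' protocols, ribosomal RNA was removed from total RNA, and the rest was amplified with random primers, labelled with Cy3 and hybridised to single-colour Agilent arrays. The deposited scanner files hold spot intensity from Agilent Feature Extraction 11.0.1.1, with the background subtracted but without normalisation from array to array, per the file headers. A table of log2 values deposited by the authors has equal quartiles in all columns; its way of combining spots was not given in the sources used here.

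Outlier-marked spots (9 of 240 for the 4 genes) and all control spots were left out, log2 spot values were averaged per probe, and each array was lowered by its 75th percentile. Testing required a probe to be well above background on 3 or more of the 6 arrays, which 37723 probes met, among them all 4 genes, and 1081 did not. The groups were compared with limma 3.58.1 under R 4.3.3 (a linear model with eBayes, two-sided, Benjamini-Hochberg over all tested probes, threshold 0.05). Gaps within arrays were tested by exact permutation over 20 assignments. Names came from RefSeq accessions of the 50 catalogue probes, of which 30 matched; figures used matplotlib 3.10.9 in Python 3.11.15.

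The genes named are the 4 members and, for each, the 2 named genes with the nearest profile. Members, lists and tests were chosen with earlier results of these data known. Alternatives were other scalings, normexp background correction (offset 50, on median signals, because no mean spot signal is among the columns), the deposited table, other handling of spots and dim probes, the slide or replicate number as a block, other thresholds and leaving out each array. To check for pairing, the deviations of each control array and the peptide array of the same number from their group means were correlated, giving -0.013, -0.19 and -0.236.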

Additional observations from a re-analysis of the deposited data

How the results depend on the processing

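With 3 arrays per group, precision is set by the number of rats, not by the spots. None of the 4 genes passed the adjusted threshold under any of the 21 alternative fits (smallest limma adjusted p 0.405, for Mex3c), and the lowest unadjusted limma p was 0.029. Median scaling moves all probes alike (the median difference of all probes went from -0.214 to -0.011), and Ndfip1 at 0.117 kept its distance of 0.13 from that median. The cause of the other changes was not tested. Ndfip1 also turned sign at 0.002 after quantile normalization, 0.003 in the deposited table, 0.187 with normexp and the 75th percentile, 0.174 with the slide as a block and on slide 1 alone, 0.031 with a random slide block, 0.392 without control 1 and 0.021 without peptide 2. Its distance above the median of all probes was 0.16 with the slide as a block and on slide 1 alone. This distance was 0.14 with a random slide block and 0.18 without peptide 2. It was 0.03 after quantile normalization and in the deposited table, 0.68 with normexp and the 75th percentile, and 0.62 without control 1. Ndfip2 turned with normexp and the 75th percentile (0.038) and without control 1 (0.154), Trim2 without peptide 1 (-0.15), and Mex3c with normexp and the 75th percentile (-0.461). Leaving out 1 array gave -0.326 to 0.392 for Ndfip1, -0.466 to 0.154 for Ndfip2, -0.15 to 0.624 for Trim2 and 0.222 to 0.395 for Mex3c. The adaptor gap difference was above 0 in all 15 alternatives (0.07 to 0.32, and 0.07 to 0.237 without 1 array). These reuse the same 6 arrays, so their number does not measure how stable the sign is. Median scaling could not change the value (0.154). Both slide fits gave 0.32, because each sets peptide 1 against the controls. The Trim2 minus Mex3c gap turned with normexp and the 75th percentile (0.614) and on slide 1 (0.659, also with the slide as a block), and without control 1 (0.195) and peptide 2 (0.371), and ranged from -0.411 to 0.371 without 1 array. Over all probes the count past the adjusted threshold was 0, and 0 to 4 without 1 array, with 4 without control 2; other thresholds gave 1068 at an unadjusted limma p under 0.05 and 340 with a 2-fold limit as well. The replicate number does not pair the arrays by their values; with the replicate block the differences were unchanged by construction (Ndfip1 -0.087, Ndfip2 -0.24, Trim2 0.234, Mex3c 0.288) and 0 probes passed.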
